A study of Mus musculus with 2 samples.

Results

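Chromatin accessibility of the killer lectin-like receptor genes was examined in spleen by DNase-seq, which sequences the ends of fragments cut by DNase I and so marks open chromatin. Every protein-coding mouse gene whose symbol begins with Klr or Clec2 was taken from GENCODE M21 on the mm10 build, which gave 32 genes of 21938. All 32 lie on chromosome 6, and 29 of them form 1 complex at chr6:128609227-131247362, a run of 2.64 Mb in which each member lies within 1 Mb of the next. The members were divided by symbol into 11 Klra genes, 5 Klrb genes, 5 Klrc, Klrd and Klrk genes, 6 Clec2 genes and 5 further Klr genes. A further 6 genes with such symbols are annotated as pseudogenes (Clec2j, Clec2f, Klrb1-ps1, Klra11-ps, Klra13-ps and Klra14-ps) and were not counted.

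The libraries come from whole spleen of 2 male mice of strain B6CASTF1/J aged 2 months, an F1 cross of C57BL/6J and CAST/EiJ, and each animal has its own library. Both belong to 1 group with no second condition, so the animals were set side by side and no test between groups was possible. Of the deposited peak lists the longer was used, with 79246 peaks for animal 1 and 77231 for animal 2, and the sequencing depth is not stated in the labels or headers. Height is the authors' deposited signal for a peak, in a unit they do not state in words. A footprint is a short stretch inside open chromatin that DNase I cut less than its surroundings, and the deposited footprints carry positions but no strength. The labelled tissue was checked on promoter peaks in both animals, where a promoter is 1 kb on each side of any annotated transcription start site. Of the B cell markers 6 of 6 had one, with mean heights of 4.16 to 12.4, and of the T cell markers 5 of 6 had one. Of the natural killer (NK) cell markers 3 of 6 had one, namely Prf1 at 1.74, Il2rb at 0.949 and Nkg7 at 0.702, while Ncr1, Gzma and Gzmb had none. Of the hepatocyte markers 1 of 6 had one, Apob at 0.446.

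The complex encodes C-type lectin-like proteins that sit on the surface of NK cells, some T cells and myeloid cells. Klra genes encode the Ly49 receptors, which read MHC class I in mice. Klrd1 (CD94) pairs with the NKG2 proteins of the Klrc genes to read the non-classical class I molecule Qa-1, and Klrk1 (NKG2D) reads stress-induced ligands. Klrb genes encode the NKR-P1 receptors, and several of their ligands are encoded by the Clec2 genes that lie among them, so that receptor and ligand genes are neighbours.

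The sequences that carry the result are the promoter peaks of the members that held a footprint in both animals. Each is the part of the peak common to both animals, kept to its middle 300 bases where longer (Clec2d), in the C57BL/6J reference sequence of GRCm38.p6, written 5′ to 3′ in the direction of the gene. Capitals mark bases that lay in a footprint of both animals, and a sequence with no capitals had footprints in both animals that did not overlap. The alleles of the hybrid were not separated, and the CAST/EiJ sequence is not shown.
Clec2d, chr6:129180451-129180750, plus strand, start site at base 165: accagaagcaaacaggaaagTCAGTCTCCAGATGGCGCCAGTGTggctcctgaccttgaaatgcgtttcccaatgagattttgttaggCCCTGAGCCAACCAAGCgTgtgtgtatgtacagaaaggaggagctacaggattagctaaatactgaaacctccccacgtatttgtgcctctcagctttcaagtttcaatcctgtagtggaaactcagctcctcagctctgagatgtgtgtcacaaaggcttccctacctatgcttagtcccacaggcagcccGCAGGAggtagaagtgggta
Clec2i, chr6:128887501-128887660, plus strand, start site at base 88: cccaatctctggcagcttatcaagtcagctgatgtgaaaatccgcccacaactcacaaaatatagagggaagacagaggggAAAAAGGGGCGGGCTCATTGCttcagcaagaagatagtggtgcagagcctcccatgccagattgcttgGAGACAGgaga
Klrb1f, chr6:129049181-129049360, plus strand, start site at base 154: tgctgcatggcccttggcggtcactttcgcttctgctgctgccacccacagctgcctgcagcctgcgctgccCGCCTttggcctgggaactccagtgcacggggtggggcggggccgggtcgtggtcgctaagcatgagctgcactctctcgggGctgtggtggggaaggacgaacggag
Klrd1, chr6:129591621-129591820, plus strand, start site at base 162: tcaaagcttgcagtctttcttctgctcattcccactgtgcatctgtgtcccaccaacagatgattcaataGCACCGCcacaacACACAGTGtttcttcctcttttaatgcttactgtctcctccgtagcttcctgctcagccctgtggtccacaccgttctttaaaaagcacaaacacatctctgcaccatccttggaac
Clec2h, chr6:128662432-128662556, plus strand: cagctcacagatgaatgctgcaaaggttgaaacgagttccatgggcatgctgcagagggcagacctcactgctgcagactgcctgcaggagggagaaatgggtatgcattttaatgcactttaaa
Clec2i upstream peak, chr6:128886757-128886886, plus strand: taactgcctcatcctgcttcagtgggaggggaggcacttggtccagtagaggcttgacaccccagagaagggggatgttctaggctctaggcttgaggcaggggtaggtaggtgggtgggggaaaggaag
Klrg2, chr6:38636844-38637061, minus strand: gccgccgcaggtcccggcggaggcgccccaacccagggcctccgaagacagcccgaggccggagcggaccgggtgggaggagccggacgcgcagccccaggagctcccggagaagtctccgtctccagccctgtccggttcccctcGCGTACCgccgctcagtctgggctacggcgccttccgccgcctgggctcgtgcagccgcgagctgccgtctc

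Few members had an open promoter. A peak lay within 1 kb of a start site in 7 of 32 members in animal 1 and in 6 of 32 in animal 2. The 6 found in both animals were Clec2d, Clec2i, Clec2h, Klrb1f, Klrd1 and Klrg2, or 18.8% of the members, and Klra1 had a peak in animal 1 alone. Over all protein-coding genes the shares were 61.4% in animal 1, 62.6% in animal 2 and 59.8% in both. The member promoters are poor in CpG. The ratio of observed to expected CpG dinucleotides within 1 kb of the most 5′ start site had a median of 0.148 over the members and 0.474 over all genes, and 31 of 32 members were under 0.6. Among the 14498 genes under 0.6, the shares were 46.0% for animal 1, 46.9% for animal 2 and 43.9% for both. The 29 members of the complex had ratios of at most 0.253, a limit set after the values were seen. Among the 6695 genes up to that ratio, the shares were 19.5% for animal 1, 18.7% for animal 2 and 17.4% for both. The complex members reached 20.7% in animal 1 and 17.2% both in animal 2 and in both animals. These shares were near those of the genes up to that ratio. That set includes the complex members and was not matched to their median ratio of 0.136. The CpG ratio is taken at the most 5′ start site, and the Klrb1f peak lies elsewhere, in a stretch of 67.8% G and C. With peaks counted at the most 5′ start site alone, a choice made after the values were seen, 13.8% of the complex members (4 of 29) and 9.11% of those 6695 genes had a peak in both animals. In a tissue of many cell types, few cells with an open site and less accessibility per cell cannot be told apart.

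**Figure D1:**
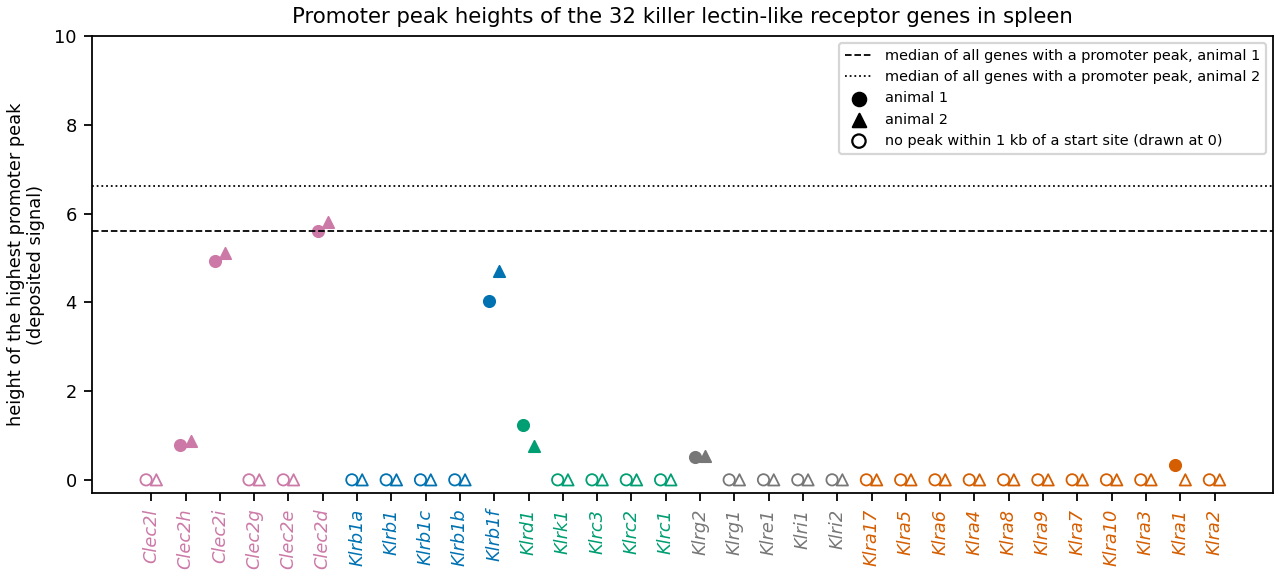
Height of the highest peak within 1 kb of a start site (deposited signal, vertical axis) for each of the 32 members in animal 1 (circles) and animal 2 (triangles), coloured by gene group, with open symbols at 0 for no peak. Clec2d, Clec2i and Klrb1f stand between 4.03 and 5.81, and the other members with a peak are at 1.22 or below. The dashed line (animal 1, 5.62) and the dotted line (animal 2, 6.63) give the medians over all genes with a promoter peak.

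The Clec2 genes had the most promoter peaks of the groups, in 3 of 6 genes in each animal. Clec2d encodes Clr-b, a broadly expressed ligand that engages the inhibitory receptor encoded by Klrb1b, and its promoter was the highest among the members. Its peak had a height of 5.62 in animal 1 and 5.81 in animal 2 (mean 5.71 ± 0.134, SD, n = 2), with its midpoint 6 bp downstream of the start site in animal 1 and 24 bp upstream in animal 2. In animal 1 this height stood at the median of all genes with a promoter peak, and in animal 2 at the 45.3rd percentile. Clec2i encodes Clr-g, a ligand of the receptor encoded by Klrb1f, and its start site lay under a peak of 4.94 in animal 1 and 5.11 in animal 2. The mean was 5.02 ± 0.125 (SD, n = 2), and lower peaks stood upstream in both animals. The peak 357 bp upstream had heights of 0.988 and 0.937, and the one 753 bp upstream in animal 1 and 766 bp in animal 2 had heights of 0.595 and 0.665. The protein-coding gene BC035044, on the minus strand, spans the Clec2i start site and all of these peaks, so they cannot be given to 1 gene. Clec2h had a low peak just inside the gene, of 0.788 in animal 1 and 0.869 in animal 2. No promoter peak was found in either animal for Clec2e, Clec2g or Clec2l, and Clec2l lies outside the complex.

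The nearest peak of Clec2g lay 27867 bp downstream of its most 5′ start site in animal 1 and 38480 bp in animal 2. Its introns held 7 peaks in animal 1 and 3 in animal 2. The 3 found in both animals had heights of 1.28, 1.63 and 1.91 in animal 1 and of 1.07, 1.05 and 1.17 in animal 2. The peak of 1.28 and 1.07 lies within 2 kb of another annotated start site of Clec2g. The antisense gene Gm15987 overlaps this peak and the one of 1.63 and 1.05, so these cannot be given to 1 gene. An intron of Clec2i held a further peak of 3.11 in animal 1 and 2.38 in animal 2, which also lies in the body of BC035044. Outside promoters, the bodies of the 6 Clec2 genes, 108.5 kb in all, held 14 peaks in animal 1 and 6 in animal 2. The bodies of the 5 Klrb genes, 66.5 kb in all, held 2 in each animal. Those of the 11 Klra genes, 223.6 kb in all, held none in either.

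Among the receptors of the Clec2 proteins, Klrb1f alone had a promoter peak in both animals. Its height was 4.03 in animal 1 and 4.71 in animal 2 (mean 4.37 ± 0.481, SD, n = 2), a wider spread than for Clec2d or Clec2i. This peak did not lie at the most 5′ start site of the gene but 3260 bp downstream in animal 1 and 3280 bp in animal 2, at an internal start site at position 129049334. The antisense gene Gm44000 spans the same place, so the peak cannot be given to 1 of them. The other 4 Klrb genes, Klrb1, Klrb1a, Klrb1b and Klrb1c, had no promoter peak in either animal. Klrb1c encodes NK1.1, the antigen by which NK cells are stained in C57BL/6 mice. The nearest peak of Klrb1c lay in its own intron, 2515 bp downstream of the most 5′ start site in animal 1 and 2495 bp in animal 2, with heights of 1.59 and 1.34. The protein-coding gene Gm44511 spans this peak as well, so it cannot be given to 1 gene. The nearest peaks of the other 3 stood upstream, at 6548 and 6568 bp from Klrb1a, 9062 and 9082 bp from Klrb1, and 12050 and 6793 bp from Klrb1b in animals 1 and 2.

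Of the Klrc, Klrd and Klrk genes, Klrd1 had a peak in each animal and the other 4 had none. Klrd1, the shared partner of the NKG2 receptors, had a height of 1.22 in animal 1 and 0.760 in animal 2 (mean 0.993 ± 0.328, SD, n = 2). The peak ended at the same base in both animals, 38 bp downstream of the start site. Klrc1, which encodes the inhibitory chain NKG2A, had a peak 1528 bp upstream in both animals, of 0.645 and 0.611, outside the 1 kb limit. Klrk1 had no peak at its most 5′ start site, but a peak of 1.03 in animal 1 and 0.774 in animal 2 stood past its 3′ end, 1.75 and 1.79 kb away, between it and Klrd1. The nearest peak of Klrc2 lay 19812 bp upstream in both animals, and that of Klrc3 lay 15695 bp downstream in animal 1 and 34717 bp in animal 2.

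The further Klr genes had low or no signal. Klrg2, which lies outside the complex and is the only member with a CpG ratio above 0.6 (0.800), had a peak of 0.509 in animal 1 and 0.536 in animal 2 just inside the gene. Klrg1 encodes a cadherin-binding inhibitory receptor of effector T and NK cells, and its nearest peak lay 11626 bp upstream in animal 1 and 11611 bp in animal 2. Klre1, whose product pairs with those of Klri1 and Klri2, had its nearest peak in an intron, at 0.709 in animal 1 and 0.767 in animal 2. Klri1 and Klri2 shared the nearest peak, 5657 bp upstream of Klri2 in animal 1 and 5717 bp in animal 2.

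The Klra genes were almost without peaks. Animal 1 had a promoter peak at 1 of the 11 genes, and animal 2 at 0. The exception was Klra1, which encodes the inhibitory receptor Ly49A. Its peak had a height of 0.337 in animal 1, at the 2.58th percentile of all genes with a promoter peak, and held no footprint. In animal 2 the same promoter held no peak but 8 bp of cut-rate intervals with a false discovery rate of at best 0.0423, against 126 bp and 0.00437 in animal 1. By these intervals, of which the deposited files list those under 0.05, 7 members had a start site within 1 kb of one in animal 1 and 7 in animal 2. The share over all genes was 62.4% in animal 1 and 63.7% in animal 2. The other 10 Klra genes had no listed interval within 1 kb in either animal, and they include Klra8, which encodes Ly49H, the activating receptor for a cytomegalovirus protein. The nearest peak was a median of 50.9 kb from the most 5′ start site of a Klra gene in animal 1 and 44.1 kb in animal 2. Over all genes those medians were 0.149 and 0.129 kb.

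**Figure D2:**
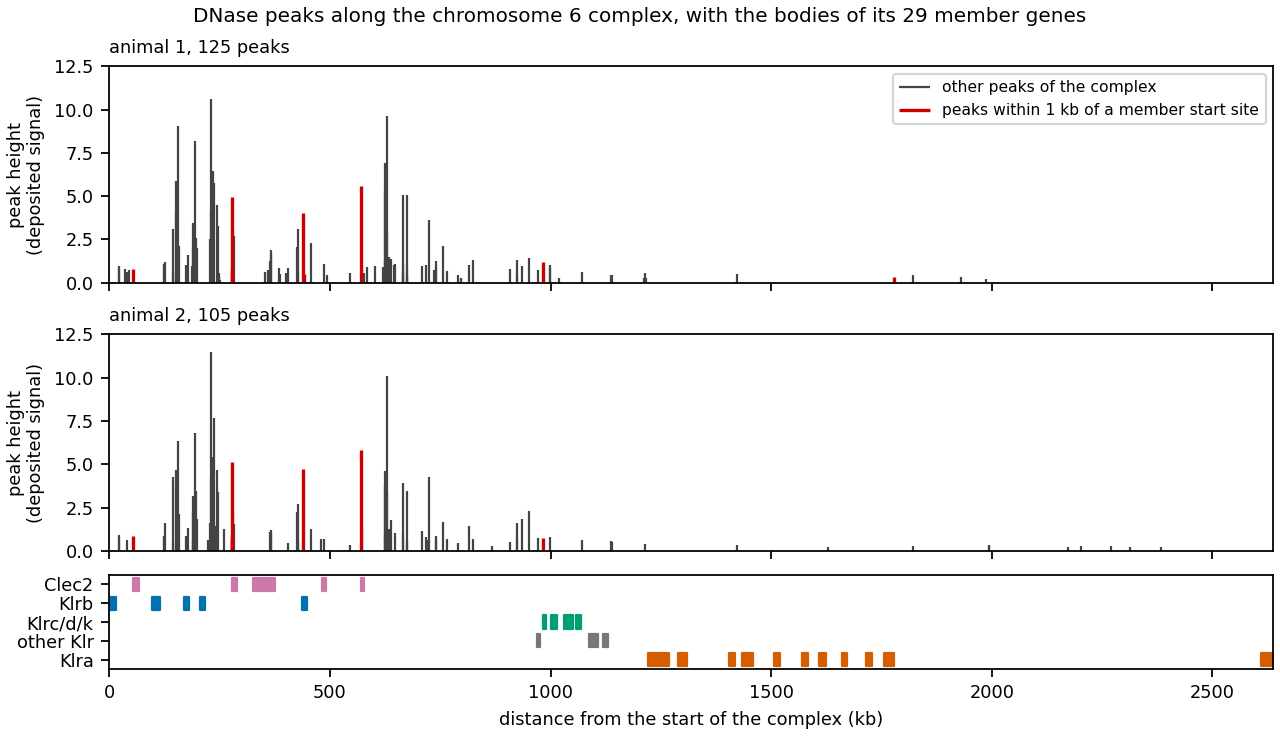
Height of every DNase peak (deposited signal, vertical axis) against distance from the start of the complex in kb (horizontal axis), in animal 1 above and animal 2 below, with peaks within 1 kb of a member start site in red and the member gene bodies by group in the lowest panel. Peaks are dense and tall over the Klrb and Clec2 genes and the gap that follows, and sparse and at most 0.516 over the Klra genes and beyond.

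Along the chromosome the peak density of the complex varied widely. From Klrb1a to Clec2d, a stretch of 577.3 kb with the Klrb and Clec2 genes, animal 1 had 71 peaks and animal 2 had 57, or 11.1 ± 1.71 per 100 kb (SD, n = 2). The gap of 391.4 kb from Clec2d to Klre1, which holds Cd69 and other lectin-like receptor genes, had 38 and 31 peaks, or 8.82 ± 1.26 per 100 kb. The stretch of 162.6 kb with Klre1, Klrd1, Klrk1, the Klrc genes, Klri1 and Klri2 had 6 and 4 peaks, or 3.08 ± 0.870 per 100 kb. The gap of 90.7 kb from Klri2 to Klra17 had 5 and 3 peaks, or 4.41 ± 1.56 per 100 kb. The stretch of 555.7 kb with 10 Klra genes had 1 and 2 peaks, or 0.270 ± 0.127 per 100 kb. The gap of 832.3 kb from Klra1 to Klra2 had 4 and 8 peaks, the Klra1 promoter peak among the 4, and the Klra2 gene itself had none. The genome as a whole had 2.91 peaks per 100 kb in animal 1 and 2.83 in animal 2. Over the whole complex the density was 4.36 ± 0.536 per 100 kb (SD, n = 2), so its mean hides stretches above and below the genome's density.

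The Klra stretch was also low by the cut-rate intervals, which come from the same 2 libraries as the peaks and are not separate support. Intervals under the limit covered 66.4 bp per 100 kb there in animal 1 and 20.9 bp in animal 2, against 1011 and 891 bp over the genome. In the Klrb and Clec2 stretch they covered 4097 and 3127 bp per 100 kb. A single site in the Klra stretch was found in both animals, between Klra6 and Klra4, with a height of 0.516 in animal 1 and 0.312 in animal 2. It held 3 footprints in animal 1 and 0 in animal 2.

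**Figure D3:**
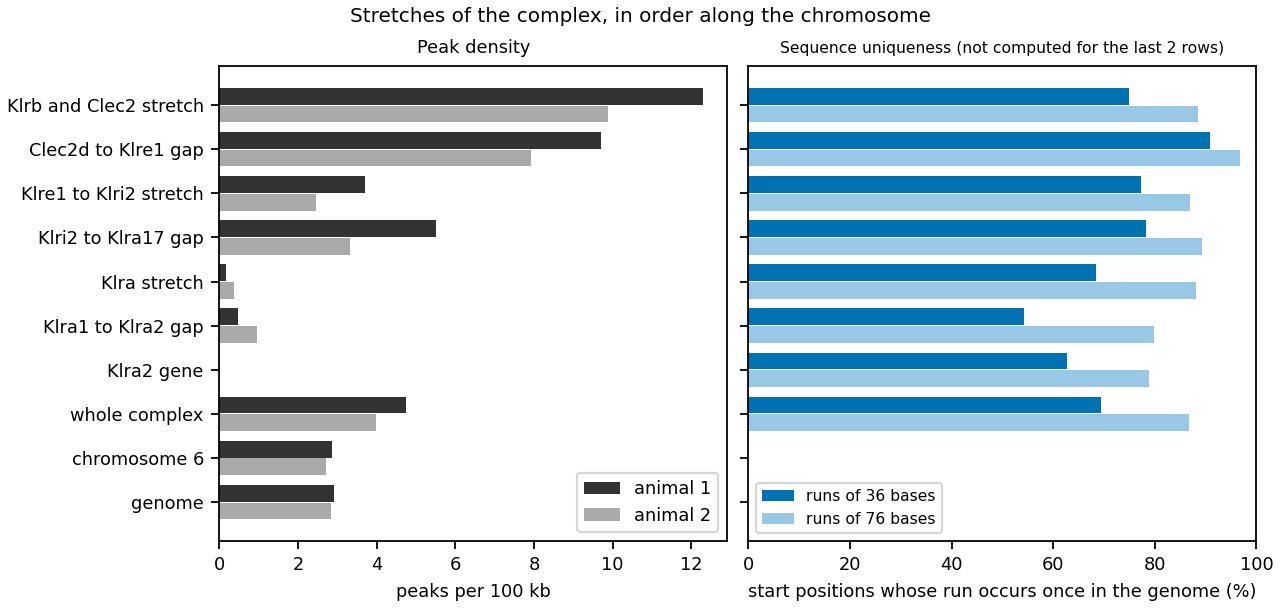
Left, peaks per 100 kb (horizontal axis) in each stretch of the complex and in chromosome 6 and the genome, for animal 1 (dark) and animal 2 (pale). Right, the percent of positions in each stretch from which a run of 36 bases (dark) or 76 bases (pale) occurs once in the genome. The Klra stretch has 0.180 and 0.360 peaks per 100 kb and is 68.4% unique for runs of 36 bases, and the Klrb and Clec2 stretch has 12.3 and 9.87 and is 74.8% unique.

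Some members are close copies of others, so the uniqueness of the reference sequence was measured. Neither the read length nor the handling of reads with several matches is stated in the labels or headers. For runs of 36 bases, 68.4% of positions in the Klra stretch occurred once in the genome, against 74.8% in the Klrb and Clec2 stretch, 77.4% from Klre1 to Klri2 and 54.2% from Klra1 to Klra2. For runs of 76 bases the shares were 88.1%, 88.4%, 86.9% and 79.9%. The peaks of the complex had a median of 100% unique positions for 36 bases in each animal, against 69.5% of positions over the whole complex. The promoters of the Klra genes, each taken as 1 kb around the most 5′ start site, had a median of 79.1% unique positions for 36 bases and 98.1% for 76 bases. The other genes of chromosome 6 had a median of 99.2% for 36 bases and a 10th percentile of 87.3%. The median was 92.0% for the Klrb promoters and 88.6% for the Clec2 promoters. Klra promoters ranged from 49.2% to 94.0%, and Clec2d, with the tallest promoter of the members, had 74.0%. Klrc2 and Klrc3 were the exceptions, at 15.2% and 16.7% for 36 bases and at most 27.3% for 76, where short reads can seldom be placed on 1 gene. These lengths are assumed ones, and the part of read placement in the counts was not tested for any member.

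**Figure D4:**
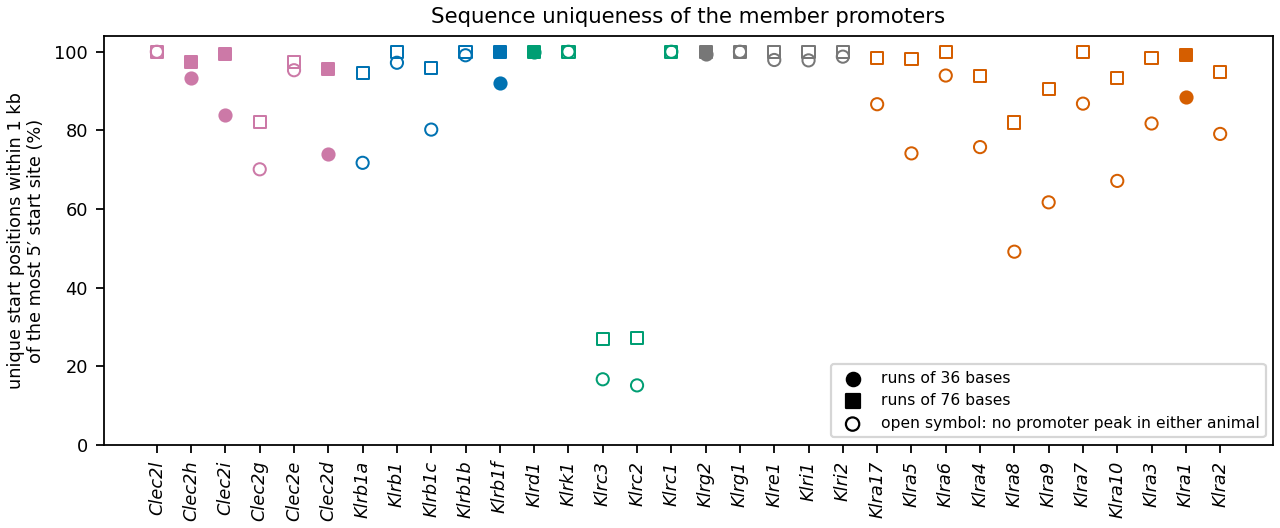
Percent of positions within 1 kb of the most 5′ start site from which a run of 36 bases (circles) or 76 bases (squares) occurs once in the genome (vertical axis), for each member, with filled symbols for members with a promoter peak in at least 1 animal. Klrc2 and Klrc3 stand apart at 15.2% and 16.7% for 36 bases. Klra promoters range from 49.2% to 94.0%, and Clec2d, which has a peak, is at 74.0%.

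RefSeq promoter sequences of GRCm38.p6, from 250 bases before to 50 after the start, were matched by symbol for 29 of the 32 members. Aligned to each other, Klrc2 and Klrc3 were 98.3% identical. The identity of a Klra promoter with its closest member had a median of 74.8%, from 48.8% for Klra1 to 85.0% for Klra3 and Klra9. For the Klrb promoters it ranged from 57.7% to 69.4%. For the Clec2 promoters the median was 49.7%, with 79.0% between Clec2e and Clec2h, and Klrc1 and Klrk1 had 51.2% and 49.9%.

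The tallest peaks of the complex lay away from the promoters of protein-coding genes. Start sites of non-coding genes were not counted as promoters. Of the complex peaks, 9 of 125 in animal 1 and 8 of 105 in animal 2 lay within 1 kb of a member start site. A further 8 in each animal lay at promoters of other protein-coding genes, and 69 and 65 lay between protein-coding genes. Over the genome, 26408 of the 79246 peaks of animal 1 lay within 1 kb of a protein-coding start site. Among sites found in both animals, the highest outside these promoters (site 1) had a height of 10.6 in animal 1 and 11.5 in animal 2. It stands between Klrb1b, 13.4 kb away, and the uncharacterised gene BC035044, 9.40 kb away. The next (site 2), with 9.61 and 10.1, lies in the long non-coding RNA gene 2310001H17Rik between Clec2d and Cd69. It is within 1 kb of the annotated starts of that gene and of the non-coding gene Gm47861. Of the 10 highest, 7 lay in the Klrb and Clec2 stretch and 3 in that non-coding gene. Sites 4 and 10 lay in the bodies of the protein-coding genes Gm44511 and BC035044, and site 5 in the non-coding genes Gm26656 and Gm44067. Site 6 spans the annotated start of the non-coding gene Gm44066. The 10 sites ranged down to a mean of 4.57.

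Several of these sites resembled each other in sequence. Numbered by mean height, site 3, between Klrb1 and Klrb1c, had a height of 9.05 in animal 1 and 6.35 in animal 2. Site 4, between Klrb1c and Klrb1b within the body of the protein-coding gene Gm44511, had 8.18 and 6.82. They lie 38.9 kb apart and align over 185 positions with 85.4% identity in the same orientation. Site 6, between Klrb1b and BC035044 with 6.43 and 5.45, shares a run of 66 positions at 98.5% identity with site 3 in the opposite orientation. Most of their positions are unique for runs of 36 bases, at 90.5% in site 3, 89.7% in site 4 and 84.4% in site 6. A peak was present in both animals at each of these 3 partly duplicated sequences. The sequences are given to show the shared part, on the plus strand of GRCm38.p6, with site 6 kept to its middle 300 bases and with capitals again marking bases in footprints of both animals. Sites 1 and 10 are shown for the motifs described further on.
Site 3, chr6:128764161-128764380: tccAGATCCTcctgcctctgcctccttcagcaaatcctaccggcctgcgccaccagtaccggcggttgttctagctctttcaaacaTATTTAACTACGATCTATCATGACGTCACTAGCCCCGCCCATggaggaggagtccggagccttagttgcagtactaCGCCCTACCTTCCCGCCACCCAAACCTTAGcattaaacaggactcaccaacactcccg
Site 4, chr6:128803081-128803380: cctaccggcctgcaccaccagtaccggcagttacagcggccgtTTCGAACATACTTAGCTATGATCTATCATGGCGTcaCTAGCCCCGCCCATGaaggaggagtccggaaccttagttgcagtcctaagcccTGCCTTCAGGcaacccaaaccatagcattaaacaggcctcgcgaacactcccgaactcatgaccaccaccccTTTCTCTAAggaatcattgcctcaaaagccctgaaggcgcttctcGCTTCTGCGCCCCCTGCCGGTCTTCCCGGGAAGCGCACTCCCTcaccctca
Site 6, chr6:128843061-128843360: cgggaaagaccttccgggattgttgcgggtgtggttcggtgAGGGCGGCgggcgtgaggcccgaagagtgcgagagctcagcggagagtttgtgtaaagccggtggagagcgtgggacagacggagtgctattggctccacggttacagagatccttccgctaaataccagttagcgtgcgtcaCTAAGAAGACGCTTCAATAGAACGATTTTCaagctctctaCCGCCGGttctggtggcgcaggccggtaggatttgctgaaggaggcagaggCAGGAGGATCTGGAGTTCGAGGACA
Site 1, chr6:128839601-128839780: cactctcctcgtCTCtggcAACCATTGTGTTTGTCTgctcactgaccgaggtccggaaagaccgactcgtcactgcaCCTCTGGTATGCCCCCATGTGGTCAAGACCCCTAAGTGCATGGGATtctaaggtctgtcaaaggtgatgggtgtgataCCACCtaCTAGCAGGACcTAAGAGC
Site 10, chr6:128854161-128854380: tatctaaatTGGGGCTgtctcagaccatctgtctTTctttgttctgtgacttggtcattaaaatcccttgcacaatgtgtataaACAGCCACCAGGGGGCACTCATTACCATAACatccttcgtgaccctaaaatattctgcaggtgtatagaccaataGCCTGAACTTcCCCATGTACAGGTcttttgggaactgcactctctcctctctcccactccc

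The footprinted bases of sites 3 and 4 fall in part on the same aligned bases, around the stretch CTAGCCCCGCCCAT that both sequences hold in capitals. Bases that the assembly marks as repeats made up 19.3% of the peak bases of the complex in animal 1 and 15.5% in animal 2, against 10.6% of all peak bases in each animal. They made up 44.3% of the whole complex.

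Most peaks of the complex were found again in the other mouse. Of the peaks of animal 1, 66.4% overlapped one of animal 2, against 76.5% over all peaks. Of the peaks of animal 2, 80.0% overlapped one of animal 1, against 79.0%. Heights of the 82 sites matched between the animals had a median log2 ratio of animal 2 over animal 1 of -0.12 (SD 0.40). Over all 58277 matched peaks the median was 0.23 (SD 0.41). So 31 sites of the complex were higher in animal 2 and 51 in animal 1, while over all matched peaks 41722 were higher in animal 2 and 16555 in animal 1. This is a difference between libraries of 1 group, and its source was not tested.

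The peaks of the complex held 276 footprints in animal 1 and 243 in animal 2, or 2.21 and 2.31 per peak, against 2.28 and 2.35 over all peaks. At the Clec2d promoter, 24 bases from 144 to 121 bp upstream of the start site were footprinted in both animals, and so were 17 bases from 76 to 60 bp upstream. At Clec2i the 21 bases from 6 bp upstream to 14 bp downstream, across the start site itself, were footprinted in both. Klrb1f had 4 footprints in animal 1 and 3 in animal 2 but only 5 adjacent bases in common upstream of the start site, from 81 to 77 bp. Klrd1 had 1 footprint in animal 1, which covered 2 shorter ones in animal 2, from 91 to 85 and from 78 to 71 bp upstream.

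**Figure D5:**
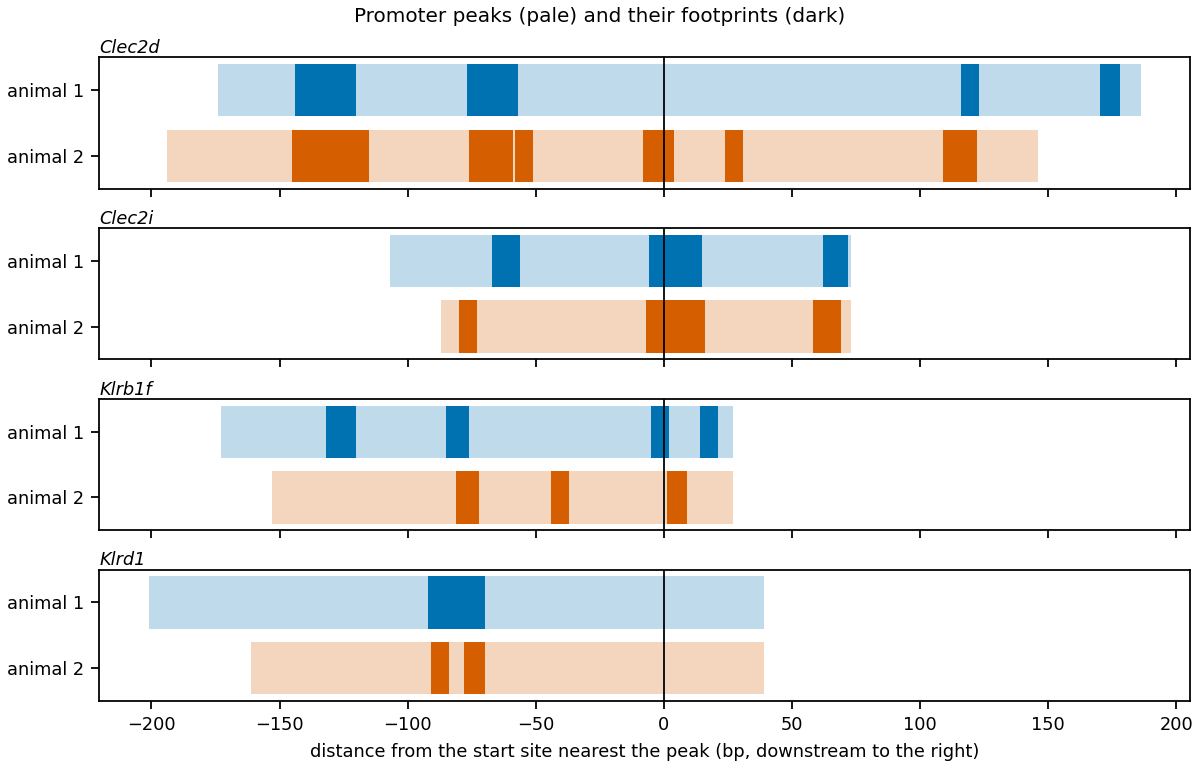
Promoter peaks (pale bars) and their footprints (dark bars) at Clec2d, Clec2i, Klrb1f and Klrd1, by distance in bp from the start site nearest the peak (horizontal axis, downstream to the right), with animal 1 above animal 2. Footprints coincide upstream of Clec2d, across the Clec2i start and upstream of Klrd1, and share 5 adjacent bases upstream of Klrb1f.

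Short motifs of factors known in lymphocytes were searched on both strands in a window of 200 bp centred on each of the 7 promoter peaks shown. The windows run past the ends of shorter peaks. The ETS letters GGAAG were in 6 of 7 windows, and 62.5% of all 26408 promoter peaks of animal 1 held them in such a window. In Clec2h they lay only outside the stretch printed above, and the printed Clec2d stretch holds them on the other strand, outside its window. The RUNX letters TGTGGT were in Klrb1f and Klrd1, against 9.93% of all promoter peaks. The AP-1 letters TGANTCA were in the windows of Klrd1 and Clec2h, against 3.58%, and of these only Klrd1 holds them in its printed stretch. The TCF1/LEF1 letters CTTTGA were in Klrd1, against 7.87%. The E2A letters CAGCTG were in 3 of 7 windows, against 12.2%, and in the printed stretches of the main Clec2i peak and of Klrb1f. The CTCF core letters CCCTC were in 4 of 7, against 63.1%. The GATA letters AGATAA, the T-box letters GGTGTGA, the NF-kB letters GGGANTTTC and the IRF letters GAAANNGAA were in none. None of the matches to these short letters in the printed stretches had most of its bases in footprints of both animals. A match is a run of letters and does not show that a factor is bound.

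Among the 10 highest sites away from protein-coding promoters, some matches fell in footprints. The RUNX letters were in the window of 1 of them, site 1, where they are in capitals, against 21.4% of all peaks outside promoters. The printed stretch of site 6 also holds them, outside its window and in no shared footprint. The ETS letters were in 6 of the 10 windows, against 64.8%. In the whole stretches they had most of their bases in shared footprints at sites 3, 4, 5 and 10. Site 1 held the T-box and TCF1/LEF1 letters outside shared footprints, against 3.47% and 13.2%. A search for the CTCF consensus of 14 positions, allowing 2 mismatches and added after the sequences were seen, matched 3 of the 10 highest sites, against 35.6% of all peaks outside promoters. Site 10 matched it at all 14 positions, and each of the 14 bases lay in footprints of both animals. Sites 2 and 5 matched at 13 positions, again wholly within shared footprints. The same search matched 1 of the 7 promoter windows, against 19.9% of all promoter peaks. It was that of Clec2h, at 12 positions and outside shared footprints. The shared footprint from 144 to 121 bp upstream of Clec2d lies outside its window, so that search did not cover it.

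Genes of the partners of these receptors were described in lists by function, beside the 59.8% of all genes with a peak in both animals. Of 9 genes for adaptors and signalling, 8 had a promoter peak in both animals. They include Hcst (DAP10), which carries the signal of NKG2D, at 2.43 ± 0.0460, Tyrobp (DAP12), which carries that of activating Ly49 receptors, at 1.90 ± 0.180, and the phosphatase gene Ptpn6, recruited by inhibitory receptors, at 10.6 ± 0.107 (SD, n = 2). Sh2d1b1 had a peak in animal 1 alone. Of 8 ligand genes, 5 had a peak in both animals, with class I genes highest at 27.1 ± 2.03 for H2-D1 and 16.4 ± 2.37 for H2-K1. The Qa-1 gene H2-T23 had 4.16 ± 0.113, and the NKG2D ligand genes Ulbp1 and H60b had 2.46 ± 0.626 and 1.20 ± 0.270. Raet1e had a peak in animal 2 alone, and Raet1d and H60c had none. All 9 genes for regulators of NK cells had a peak in both animals, highest for Ets1 at 16.7 ± 1.40 and lowest for Eomes at 0.542 ± 0.0682 and Tbx21 at 0.820 ± 0.0360. Their CpG ratios ran from 0.252 for Ets1 to 0.995 for Nfil3, and the lists were not matched on CpG. In whole spleen the cells that carry these peaks are not known. Among 7 other lectin-like receptor genes inside the complex, Cd69 had 4.49 ± 0.845 and Clec12a had 1.05 ± 0.286, and Clec12b, Clec1a, Clec1b, Clec9a and Olr1 had none.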

How the data were processed

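The spleen libraries of 2 animals were used. Per the labels, the values are on mm10. No label or header names the aligner, the peak caller or the read length. Of the 2 peak lists that the authors deposited for each library, whose height column is a signal, the longer was used. The deposited cut-rate files give an FDR as a p-value per interval and, tested on the files, list only values under 0.05. The deposited footprint files give positions with 1 constant p-value.

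Genes and start sites came from GENCODE M21. The promoter was 1 kb on each side of any start site of a protein-coding gene, and a gene took its highest overlapping peak. A peak was found in the other animal when 1 bp overlapped. A footprint was counted by its midpoint. Uniqueness was counted on chromosomes 1 to 19, X and Y of GRCm38.p6, both strands. Scripts ran in Python 3.11.15 with NumPy 2.4.6, pandas 2.3.3, numba 0.67.0, Biopython 1.88 and matplotlib 3.10.9, and the overlap and uniqueness code was tested on simulated data. Every member with a promoter peak in either animal was named, and peaks elsewhere were named when among the 10 highest found in both. The members and lists were chosen with earlier results of these data known. No test was run. Alternatives were the promoter width, the start site, the shorter list, heights at or above the list's median, the overlap and each animal alone.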

Additional observations from a re-analysis of the deposited data

How the results depend on the processing

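The count of members with a promoter peak in both animals was 6. It became 10 with a promoter of 2 kb, which added Klrb1c, Clec2g, Klre1 and Klrc1. With the most 5′ start site alone it was 5, without Klrb1f. With the shorter list it was 4, without Clec2h and Klrg2. It fell to 3 when only peaks at or above the list's median height were kept, which left Clec2d, Clec2i and Klrb1f. The Klra count was 0 in every such setting, and 0 and 1 with each animal alone. The Klrb count of 1 became 2 with 2 kb and 0 with the most 5′ start site alone. The Klrc, Klrd and Klrk count of 1 became 2 with 2 kb and 0 with the higher peaks. The mean of 115 peaks in the complex fell to 60.5, and 4.36 per 100 kb to 2.29, with the higher peaks. The share of animal 2's complex peaks found in animal 1, 80.0%, became 91.8% with the shorter list and 94.2% with the higher peaks. The Clec2 count of 3 ranged from 2 to 4 over these settings. No paired analysis was possible because there is 1 group.

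Sequencing depth and the handling of reads with several matches are not known here, so no counting error stands beside a height. A gene without a peak is one without a peak at the authors' threshold. With 2 animals, an SD describes this pair. The alleles of the hybrid were not separated.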
